A study of Mus musculus with 12 samples.

Results

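Histone lysine methyltransferases and demethylases write and remove methyl groups on the tails of the histones. The 40 genes described here were chosen by name, though with earlier results of these data known. They are 21 methyltransferases, 15 demethylases and 4 shared core subunits of the H3K4 methyltransferase complexes, out of the 36229 genes of the table. The KDM5 demethylases and the Polycomb enzymes are not among them. All 40 were found, 40 had a mean normalised read count of at least 10 over the mixed cultures, and 39 did over the purified myotubes.

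A methyl mark acts through its place. Methylation of lysine 4, 36 or 79 of histone H3 goes with active promoters and transcribed genes, and methylation of lysine 9 or 27 with silent chromatin. The marks are laid down by SET-domain enzymes and, for lysine 79, by Dot1l. Marks on lysines 4, 9, 27 and 36 are removed by the LSD enzymes, which use flavin, or by the Jumonji enzymes, which use iron and oxoglutarate. In muscle formation, silencing of cell-cycle genes and opening of muscle genes accompany exit from the cell cycle, and the retinoblastoma protein (Rb1), which holds E2F transcription factors in check, is needed for that exit. Kdm5a, an H3K4 demethylase, was found as a protein that binds Rb1.

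The cells were mouse embryonic fibroblasts of strain C57BL/6, all of them, controls included, transduced for 24 h with an adenovirus carrying MyoD, which drives fibroblasts toward skeletal muscle, in medium holding 10 µg/ml insulin and horse serum at 2%, and then kept for 72 h in fresh medium. The 4 genotypes were wild type (WT), Kdm5a-/- (Kdm5a KO), Rb1-/- (Rb1 KO) and Kdm5a-/-;Rb1-/- (DKO), each with n = 2 libraries of the whole, mixed culture, made from 1.7 µg of total RNA after ribosomal depletion and read for 40 bases. A further n = 2 libraries for each of WT and DKO came from myotubes separated by size under gravity and left to recover for 24 h in medium conditioned for 48 h on other fibroblasts, made from 1.5 µg of total RNA after oligo(dT) selection and 15 PCR cycles and read for 36 bases. The labels do not describe the knockout alleles. Nor do they say whether a group's libraries are from different cultures or embryos, so each p-value measures only the spread between these libraries, which may be technical. Levels are normalised read counts (reads divided by a size factor of the library). Changes are log2 differences of the normalised count + 1 (± standard error), which understates changes of genes with few reads. The words rose and fell are kept for genes whose Benjamini-Hochberg adjusted p from limma, over all genes tested, was under 0.05.

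Depth was 8688604 to 41309134 reads per library. The median gene differed by 0.11 to 0.18 (log2) between the replicates of a group, and by 0.50 between the replicates of purified DKO. Kdm5a (ENSMUSG00000030180) read 1637 and 1871 in WT, 1088 and 1192 in Kdm5a KO, 2094 and 1886 in Rb1 KO and 1319 and 1369.7 in DKO mixed cultures, and in purified myotubes 3033 and 2775 in WT and 787 and 614 in DKO. Rb1 (ENSMUSG00000022105) read 5616 and 5649.5 in WT, 5079 and 5193 in Kdm5a KO, 4457 and 4448 in Rb1 KO and 5309 and 5662 in DKO mixed cultures, and 3499.5 and 3218 in WT and 2356 and 2104 in DKO purified myotubes. A total over a gene does not check an allele that lacks part of it, and Rb1 shares exons with Lpar6 and Rcbtb2, so the groups are named by their labels throughout. Xist, the RNA of the inactive X, had no reads in WT mixed and Rb1 KO and stood at 3109.9 and 3251 in Kdm5a KO and 6933 and 6809.7 in mixed DKO, whereas Ddx3y of the Y chromosome had no reads in Kdm5a KO and DKO. Kdm5a genotype and the sex of the cells therefore cannot be told apart in any comparison across Kdm5a genotypes. The comparisons Rb1 KO with WT and DKO with Kdm5a KO are each within 1 sex.

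The labelled cell type was checked on lists of markers. The 16 skeletal muscle markers summed to 505807 to 529340 in WT, 447362 to 472573 in Kdm5a KO, 70253 to 70801 in Rb1 KO and 185210 to 198955 in DKO mixed cultures, and to 844511 to 871965 in WT and 228687 to 249367 in DKO purified myotubes. None of the 16 was at 0 in any group. The 12 markers of cycling cells summed to 1505 to 1604, 2291 to 2425, 21871 to 23912 and 43881 to 44450 in the same order of mixed cultures, and to 2072 to 2240 and 39586 to 50568 in the purified ones. The 12 fibroblast matrix markers stood highest in Rb1 KO, at 118269 to 134699, against 34506 to 37197 in WT mixed cultures. They summed to 24880 to 25924 in Kdm5a KO and 26958 to 27651 in DKO mixed cultures, both below WT. In purified myotubes their sums were 65635 to 70563 in WT and 44321 to 61937 in DKO. In mixed cultures the 8 macrophage and blood markers summed to 753 to 844 in WT and 515 to 541 in Kdm5a KO. They summed to 259 to 321 in Rb1 KO and 318 to 329 in DKO. The purified sums of these markers were 1872 to 2002 in WT and 655 to 1290 in DKO. Hba-a1 and Hbb-bs, the globins among them, were at 0 in every group. The 6 neural markers summed to 16816 to 17843 in WT and 20848 to 20947 in Kdm5a KO mixed cultures. They summed to 17073 to 17104 in Rb1 KO and 17214 to 17507 in mixed DKO. Their purified sums were 49402 to 54206 in WT and 25565 to 25943 in DKO. The sums of 6 endothelial markers lay within 217 to 1288 over all groups, and those of 6 adipocyte markers within 173 to 336. All 12 cycling markers rose, all 16 muscle markers fell and 11 of 12 matrix markers rose in Rb1 KO against WT. Over all genes tested, 36.8% rose and 34.3% fell in that comparison. The part of these markers in the changes of the histone enzymes was not tested. In these bulk samples fewer cells of a type and less RNA per cell cannot be told apart.

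By read density (normalised count per kilobase of exon), Smyd1 stood first among the 40 in WT and Rb1 KO mixed cultures and in both purified groups. It had 4324 per kilobase in WT mixed cultures, where Nsd1 followed with 441, Kdm1a with 427, Ehmt2 with 353 and Dpy30 with 291. Setd1b was lowest there, at 1.91, below Kdm4d at 7.98, the testis-enriched member of the KDM4 family. Suv39h1 was 24th of the 40 in WT and 9th in Rb1 KO mixed cultures, and 35th in WT and 7th in DKO purified myotubes.

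Loss of Rb1 moved most of these genes. In Rb1 KO against WT, 25 of the 40 rose, 10 fell and 5 did not pass. Over all 17199 genes tested, 36.8% rose and 34.3% fell, 71.1% in either direction. The median change of the 40 was 0.32, against 0.03 over all genes tested. The 35 that passed lay above the share of all genes, a difference that was not tested. The 5 that did not pass were Kdm4d, Kdm6b, Kmt2d, Setd1b and Setdb1. Among the methyltransferases 14 of 21 rose and 4 fell, and among the demethylases 8 of 15 rose and 5 fell.

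The other contrast of Rb1 loss, DKO against Kdm5a KO, uses other libraries. There 21 of the 40 rose and 11 fell (33.7% and 33.4% of all genes tested, 67.2% in either direction), with a median of 0.32 against 0.01. In DKO against WT, 22 rose and 8 fell (34.0% and 33.9%, together 67.9%), with a median of 0.34 against -0.0036. Loss of Kdm5a alone moved fewer: 6 rose and 6 fell (13.4% and 13.8%, together 27.2%), with a median of 0.01 against 0.01. Those that rose were Kdm3a, Kdm6a, Setd7, Setdb1, Suv39h1 and Suv39h2, and those that fell were Kdm4a, Kdm4c, Wdr5, Dot1l, Smyd1 and Smyd5. Of these 6 falls, 3 passed without WT replicate 1, where Smyd2 passed as well, 3 without WT replicate 2, 2 without Kdm5a KO replicate 1 and 3 without Kdm5a KO replicate 2. The fall of Wdr5 (-0.28 ± 0.09) was lost when any one of these 4 libraries was left out (adjusted p 0.0661 to 0.123) and with edgeR, DESeq2, TMM scaling or only the 2 groups compared (adjusted p 0.0608 to 0.105). That of Kdm4c (-0.25 ± 0.07) was lost without WT replicate 1 (adjusted p = 0.111), without Kdm5a KO replicate 2 (adjusted p = 0.162) and with only the 2 groups compared (adjusted p = 0.056). In DKO against Rb1 KO, 10 rose and 8 fell (23.1% and 24.2%, together 47.3%). In purified myotubes, DKO against WT, 9 of 39 rose and 4 fell (21.0% and 18.6%, together 39.6%), with a median of 0.09 against -0.05. The shares of the 40 that moved in Kdm5a KO, in DKO against Rb1 KO and in purified myotubes were thus near those of all genes.

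**Figure D1:**
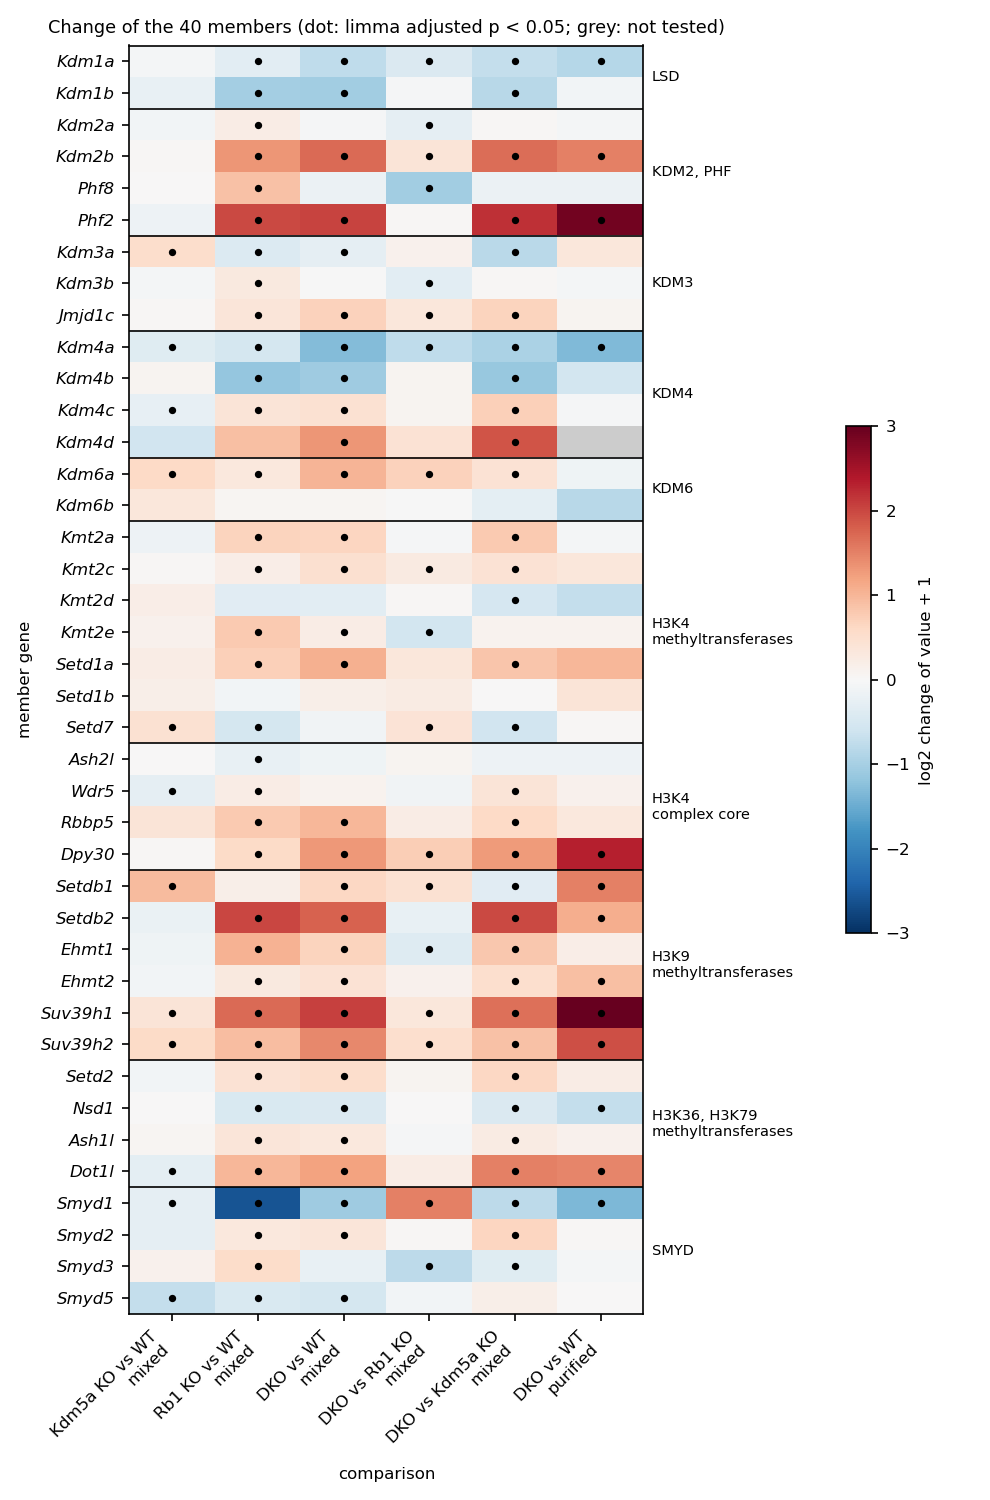
Log2 change of normalised count + 1 for the 40 genes (rows, by role) in 6 comparisons (columns), red for higher and blue for lower in the group named first, with a dot where the limma adjusted p was under 0.05 and grey where the gene was not tested. Dots fill most of the Rb1 KO against WT column (25 genes rose and 10 fell) and few of the Kdm5a KO against WT column (6 rose and 6 fell).

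Most of the H3K9 methyltransferases rose with the loss of Rb1. Of the 6, 5 rose and 0 fell in Rb1 KO against WT, 6 rose in DKO against WT, 5 rose and 1 fell in DKO against Kdm5a KO, and 5 of 6 rose in purified DKO myotubes. Over all genes tested, 36.8%, 34.0%, 33.7% and 21.0% rose in these 4 comparisons. Of the rises in purified myotubes, only that of Suv39h1 passed also without either WT purified library. The median change of the group was 0.99 in Rb1 KO, 1.06 in mixed DKO and 1.30 in purified DKO. Their normalised counts summed to 5528 and 5366 in WT, 6985 and 6480.4 in Kdm5a KO, 9087 and 9008 in Rb1 KO and 9532 and 9783 in DKO mixed cultures. The purified sums were 5379 and 5491 in WT and 10707 and 13094 in DKO, so the WT and DKO sums did not overlap in either kind of library. The markers of cycling cells rose in the same libraries, 12 of 12 in Rb1 KO, in both contrasts of DKO with a group that kept Rb1, and in purified DKO, and their part in the H3K9 result was not tested.

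Suv39h1 and Suv39h2, which trimethylate H3K9 in the heterochromatin around centromeres, rose and Smyd1, a methyltransferase of muscle, fell in every group without Rb1 against its control with Rb1. The RefSeq windows around their start sites (GRCm38.p6, 250 bases before to 50 bases after) are shown because Suv39h1 holds the only E2F motif among the windows of these genes. The letters searched were TTTCCCGC, TTTCGCGC, TTTGCCGC and TTTGGCGC for E2F and CAGCTG for the E-box that MyoD can bind, on both strands, and a match is marked in capitals.

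Suv39h1, chrX:8074312-8074611, minus strand, with TTTGCCGC on the opposite strand: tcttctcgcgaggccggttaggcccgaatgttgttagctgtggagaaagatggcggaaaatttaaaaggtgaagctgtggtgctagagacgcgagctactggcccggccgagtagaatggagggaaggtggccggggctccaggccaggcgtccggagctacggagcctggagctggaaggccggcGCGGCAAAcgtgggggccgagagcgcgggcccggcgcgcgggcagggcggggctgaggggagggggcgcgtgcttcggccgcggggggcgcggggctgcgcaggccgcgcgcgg

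Suv39h2, chr2:3474937-3475236, minus strand, with CAGCTG: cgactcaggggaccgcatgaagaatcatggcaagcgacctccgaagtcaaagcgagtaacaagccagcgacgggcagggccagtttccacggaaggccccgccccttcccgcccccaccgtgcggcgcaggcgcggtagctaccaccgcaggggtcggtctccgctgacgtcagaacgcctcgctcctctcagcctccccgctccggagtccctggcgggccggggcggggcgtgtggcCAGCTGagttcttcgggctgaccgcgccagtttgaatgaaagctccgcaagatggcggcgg

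Smyd1, chr6:71262232-71262531, minus strand, with neither motif: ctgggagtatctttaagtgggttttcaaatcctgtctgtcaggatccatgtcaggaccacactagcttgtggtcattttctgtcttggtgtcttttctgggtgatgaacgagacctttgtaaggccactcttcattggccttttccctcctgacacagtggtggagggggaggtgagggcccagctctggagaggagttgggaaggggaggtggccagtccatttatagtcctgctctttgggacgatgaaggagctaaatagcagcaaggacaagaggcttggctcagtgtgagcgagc

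Windows were matched for 30 of the 40 genes, 42 windows in all. An E2F motif stood in 1 of the 42 (2.38%), against 744 of all 32851 windows of the table (2.26%). The E-box stood in 7 of the 42 (16.7%), against 16.3% of all windows. The match in Suv39h1 began 64 bases and that in Suv39h2 11 bases before the start site. Both shares were near those of all promoters, and a second Suv39h1 window, at chrX:8074711-8075010, held neither motif. A match describes letters only.

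Suv39h1 (ENSMUSG00000039231, X chromosome) read 446 and 424 in WT, 566 and 576 in Kdm5a KO, 1396 and 1433 in Rb1 KO and 1764 and 1835 in DKO mixed cultures. In purified myotubes the count was 175 and 159 in WT and 2124 and 2191 in DKO. No group overlapped its neighbour in this order of the mixed cultures, and the WT and DKO purified libraries lay far apart. It rose 3.25-fold in Rb1 KO (1.70 ± 0.08, limma adjusted p = 6.88e-10), 4.13-fold in mixed DKO (2.05 ± 0.08, limma adjusted p = 2.16e-10) and 12.9-fold in purified DKO (3.69 ± 0.20, limma adjusted p = 0.000984). The rise in purified myotubes was larger than that in mixed cultures by 1.64 ± 0.15 (limma adjusted p = 0.000102). Smaller rises were seen in Kdm5a KO (0.39 ± 0.08, limma adjusted p = 0.00251) and in DKO over Rb1 KO (0.35 ± 0.08, limma adjusted p = 0.00247). In these comparisons, as in DKO against WT, Kdm5a genotype and sex cannot be told apart. Up to 14.6% of the exon bases of Suv39h1 lie within exons of Gm14820 on the opposite strand, and the libraries are not stated to keep strand, so its level is uncertain by the reads the pair shares.

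Suv39h2 (ENSMUSG00000026646) followed the same order at lower levels. It read 208 and 169 in WT, 262 and 295 in Kdm5a KO, 374 and 347 in Rb1 KO and 523 and 505 in DKO mixed cultures, with no overlap between groups. In purified myotubes the count was 35.3 and 65.8 in WT and 247 and 143 in DKO, where the replicates were far apart but did not overlap across genotypes. It rose in Rb1 KO (0.94 ± 0.14, limma adjusted p = 4.39e-05), in mixed DKO (1.45 ± 0.14, limma adjusted p = 9.04e-07) and in purified DKO (1.94 ± 0.46, limma adjusted p = 0.0256). Its rise in Kdm5a KO (0.56 ± 0.14, limma adjusted p = 0.00897) did not pass without WT replicate 2 (adjusted p = 0.0502) or Kdm5a KO replicate 2 (adjusted p = 0.0711). Its rise in DKO over Rb1 KO (0.51 ± 0.14, limma adjusted p = 0.00789) did not pass without Rb1 KO replicate 2 (adjusted p = 0.0536) or DKO replicate 1 (adjusted p = 0.0684).

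Setdb2, a relative of Setdb1 that carries a bipartite SET domain, read 127 and 138 in WT, 109 and 121 in Kdm5a KO, 506 and 556 in Rb1 KO and 434 and 474 in DKO mixed cultures. Both groups without Rb1 stood far above both groups with it. It rose 3.99-fold in Rb1 KO (2.00 ± 0.14, limma adjusted p = 4.29e-08) and 3.92-fold in DKO over Kdm5a KO (1.97 ± 0.14, limma adjusted p = 6.39e-08). Ehmt1, which with Ehmt2 forms the enzyme of H3K9 mono- and dimethylation in euchromatin, read 1364 and 1344 in WT, 1195 and 1263 in Kdm5a KO, 2786 and 2796 in Rb1 KO and 2089.9 and 2212 in DKO. The gene rose in Rb1 KO (1.04 ± 0.06, limma adjusted p = 1.15e-08) and was lower again in DKO than in Rb1 KO (-0.38 ± 0.06, limma adjusted p = 0.000361). Its partner Ehmt2 rose less in Rb1 KO (0.30 ± 0.07, limma adjusted p = 0.00236), and in purified DKO Ehmt2 rose (0.90 ± 0.22, limma adjusted p = 0.0278) while Ehmt1 did not pass (0.19 ± 0.20, limma adjusted p = 0.47).

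Setdb1, which methylates H3K9 with Trim28 at retroelements, differed from the rest of its group. It read 1487 and 1306 in WT, 2906 and 2494 in Kdm5a KO, 1543 and 1591 in Rb1 KO and 2138 and 2135 in DKO mixed cultures, and 638 and 675 in WT and 1618 and 2133 in DKO purified myotubes. The highest mixed libraries were those of Kdm5a KO, where the rise of 1.93-fold was the largest among the 40 genes in that comparison (0.95 ± 0.08, limma adjusted p = 6.75e-06). In Rb1 KO it did not pass (0.17 ± 0.08, limma adjusted p = 0.0855). In DKO it rose over WT (0.62 ± 0.08, limma adjusted p = 2.51e-05) and over Rb1 KO (0.45 ± 0.08, limma adjusted p = 0.000718) and fell against Kdm5a KO (-0.33 ± 0.08, limma adjusted p = 0.00326), the last call lost without Kdm5a KO replicate 1 (adjusted p = 0.0545).

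**Figure D2:**
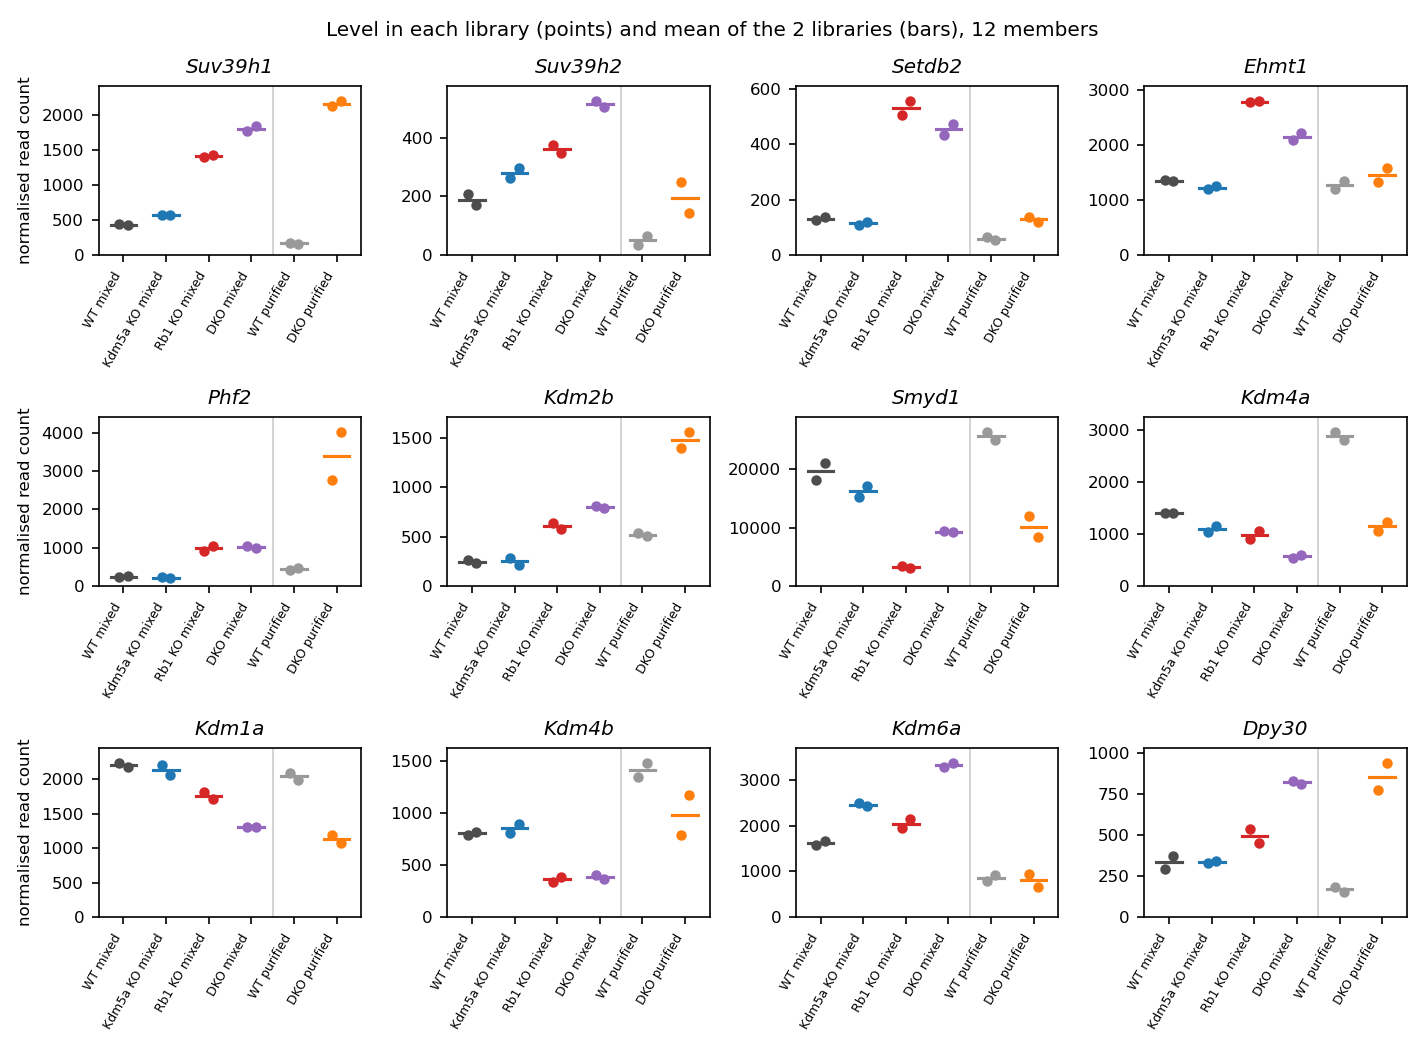
Normalised read count (vertical axis, from 0) of 12 of the 40 genes in each of the 12 libraries, points for libraries and bars for the mean of the 2 libraries of a group. A grey line parts the mixed from the purified cultures, whose levels are not compared directly. Suv39h1 climbs from 446 and 424 in WT to 1764 and 1835 in mixed DKO, and Smyd1 drops from 18223 and 21091 in WT to 3377 and 3167 in Rb1 KO.

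Smyd1 (ENSMUSG00000055027) encodes a methyltransferase of heart and skeletal muscle that is needed for the assembly of the sarcomere. It read 18223 and 21091 in WT, 15335 and 17150.3 in Kdm5a KO, 3377 and 3167 in Rb1 KO and 9476 and 9206 in DKO mixed cultures, with no overlap between groups. In purified myotubes the count was 26346 and 25006 in WT and 11984 and 8422 in DKO. It fell 5.99-fold in Rb1 KO (-2.58 ± 0.07, limma adjusted p = 8.36e-12), the largest change of the 40 genes in that comparison, and 2.1-fold in mixed DKO (-1.07 ± 0.07, limma adjusted p = 3.4e-08). It was 2.86-fold higher in DKO than in Rb1 KO (1.51 ± 0.07, limma adjusted p = 5.08e-09). The fall upon Rb1 loss was thus smaller with Kdm5a lost than with Kdm5a intact, and the difference of 1.79 ± 0.10 itself passed (limma adjusted p = 5.6e-08). Kdm5a genotype and sex cannot be told apart in this difference or in DKO against Rb1 KO. In purified myotubes DKO stood below WT (-1.35 ± 0.25, limma adjusted p = 0.013). The muscle markers moved the same way, 16 of 16 falling in Rb1 KO against WT and 14 of 16 rising in DKO over Rb1 KO. Over all genes tested, 34.3% fell in the former and 23.1% rose in the latter. The part of the muscle markers in the Smyd1 result was not tested.

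Smyd1 was also lower in Kdm5a KO than in WT (-0.27 ± 0.07, limma adjusted p = 0.0134), a call lost without WT replicate 2 (adjusted p = 0.116) or Kdm5a KO replicate 1 (adjusted p = 0.142). The other SMYD genes are widely expressed. Smyd3 read 860.3 and 592 in WT, 819 and 755 in Kdm5a KO, 1002 and 1084 in Rb1 KO and 580.2 and 634 in DKO. It rose in Rb1 KO (0.55 ± 0.14, limma adjusted p = 0.00369) and was lower in DKO than in Rb1 KO (-0.78 ± 0.14, limma adjusted p = 0.000569). Among the 40 genes only Smyd3 rose on loss of Rb1 with Kdm5a intact and fell with Kdm5a lost (-0.37 ± 0.14, limma adjusted p = 0.0316), and that fall did not pass when any of the 4 libraries compared was left out (adjusted p 0.0548 to 0.159). Smyd5 read 439 and 440.2 in WT, 252 and 282 in Kdm5a KO, 294 and 348 in Rb1 KO and 315 and 293 in DKO. The WT libraries were the highest, and Smyd5 had the largest fall of the 40 genes in Kdm5a KO (-0.72 ± 0.13, limma adjusted p = 0.00142). Smyd2, whose exons share up to 30.0% of their bases with Gm37422 on the opposite strand and whose level is uncertain for that reason, rose in Rb1 KO (0.32 ± 0.11, limma adjusted p = 0.018), a call lost without WT replicate 1 (adjusted p = 0.125) or Rb1 KO replicate 1 (adjusted p = 0.0854).

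Of the 7 H3K4 methyltransferases, 4 rose and 1 fell in Rb1 KO against WT, and 4 rose in mixed DKO. The 71.4% that passed in Rb1 KO was near the 71.1% of all genes. Kmt2a, an enzyme of promoter H3K4 methylation, rose in Rb1 KO (0.68 ± 0.14, limma adjusted p = 0.000639) and in DKO over Kdm5a KO (0.78 ± 0.14, limma adjusted p = 0.000232). Setd1a, an enzyme of promoter trimethylation, rose to a like extent (0.72 ± 0.17, limma adjusted p = 0.00193 and 0.84 ± 0.17, limma adjusted p = 0.000709), with a level that is uncertain because up to 52.3% of its exon bases are shared with Gm49388 and another gene. Setd1b, its relative, had few reads in mixed cultures, 12 and 34.1 in WT, and passed in no comparison.

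Kmt2e, a relative of the MLL enzymes without known strong methyltransferase activity, read 1444 and 1293 in WT, 1539 and 1442 in Kdm5a KO, 2298 and 2381 in Rb1 KO and 1585 and 1611 in DKO. Rb1 KO stood apart, above the other groups. The gene rose in Rb1 KO (0.78 ± 0.07, limma adjusted p = 6.41e-07) and was lower in DKO than in Rb1 KO (-0.55 ± 0.07, limma adjusted p = 4.45e-05). The effect of Rb1 loss differed with Kdm5a (-0.67 ± 0.10, limma adjusted p = 0.000224), a difference in which Kdm5a genotype and sex cannot be told apart. Kmt2c and Kmt2d, the enzymes of enhancer monomethylation, parted. Kmt2c rose in DKO over WT (0.49 ± 0.07, limma adjusted p = 6.72e-05) and over Kdm5a KO (0.44 ± 0.07, limma adjusted p = 0.000151), while Kmt2d passed only in DKO against Kdm5a KO (-0.50 ± 0.18, limma adjusted p = 0.0255), a fall lost without Kdm5a KO replicate 1 (adjusted p = 0.33) or either DKO library (adjusted p = 0.0727 and 0.108). The rise of Kmt2c in Rb1 KO (0.21 ± 0.07, limma adjusted p = 0.0235) was lost without WT replicate 2 (adjusted p = 0.159) or Rb1 KO replicate 2 (adjusted p = 0.132).

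Setd7, a monomethyltransferase with many substrates other than histones, read 2883 and 2737 in WT, 3848 and 3877 in Kdm5a KO, 1981 and 1902 in Rb1 KO and 2629 and 2567 in DKO. Kdm5a KO was highest and Rb1 KO lowest, with no overlap between groups. It rose in Kdm5a KO (0.46 ± 0.06, limma adjusted p = 9.6e-05) and in DKO over Rb1 KO (0.42 ± 0.06, limma adjusted p = 5.79e-05), and fell in Rb1 KO (-0.53 ± 0.06, limma adjusted p = 2.43e-06) and in DKO against Kdm5a KO (-0.57 ± 0.06, limma adjusted p = 1.52e-06). The difference between DKO and WT did not pass (-0.11 ± 0.06, limma adjusted p = 0.0955).

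The core subunits Wdr5, Rbbp5, Ash2l and Dpy30 bind the H3K4 enzymes in common. Dpy30 (ENSMUSG00000024067) had the largest change of the 4 in each comparison with DKO, while Rbbp5 changed more in Rb1 KO. It read 292 and 374 in WT, 332 and 344 in Kdm5a KO, 536 and 453 in Rb1 KO and 829.5 and 809 in DKO mixed cultures, and 186 and 154 in WT and 776 and 936 in DKO purified myotubes. WT and Kdm5a KO overlapped, and Rb1 KO and DKO stood above them in turn. Dpy30 rose in Rb1 KO (0.57 ± 0.13, limma adjusted p = 0.00162), in DKO over Rb1 KO (0.73 ± 0.13, limma adjusted p = 0.000531) and in purified DKO (2.32 ± 0.24, limma adjusted p = 0.0027). Rbbp5 rose in Rb1 KO (0.77 ± 0.15, limma adjusted p = 0.000383) and 2-fold in mixed DKO (limma adjusted p = 5.07e-05), and its purified DKO value (0.33 ± 0.26, limma adjusted p = 0.35) did not pass. Ash2l was 0.21 lower in Rb1 KO (-0.21 ± 0.07, limma adjusted p = 0.0123) and Wdr5 0.22 higher (0.22 ± 0.09, limma adjusted p = 0.0486). Both small calls were lost when single libraries were left out (WT replicate 2 and Rb1 KO replicate 2 for Ash2l, adjusted p 0.0516 and 0.0563, and each of the 4 libraries for Wdr5, adjusted p 0.0696 to 0.123).

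Among the enzymes of H3K36 and H3K79, Dot1l, the H3K79 methyltransferase, changed most. It read 461 and 448 in WT, 376 and 364 in Kdm5a KO, 833 and 976 in Rb1 KO and 1055 and 1047 in DKO mixed cultures, and 2980.4 and 2666 in WT and 5066 and 11877 in DKO purified myotubes. Each step from Kdm5a KO through WT and Rb1 KO to DKO was free of overlap in mixed cultures, while the purified DKO replicates were 2.34-fold apart. It rose in Rb1 KO (0.99 ± 0.10, limma adjusted p = 1.11e-06) and in DKO over Kdm5a KO (1.50 ± 0.10, limma adjusted p = 2.64e-08). The difference between these effects of Rb1 loss passed (0.52 ± 0.14, limma adjusted p = 0.0102), and Kdm5a genotype and sex cannot be told apart in it. Its fall in Kdm5a KO (-0.29 ± 0.10, limma adjusted p = 0.0401) was lost when any of the 4 libraries compared was left out (adjusted p 0.066 to 0.144) and in 5 other settings (adjusted p 0.0581 to 0.107).

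Setd2, which trimethylates H3K36 along transcribed genes, rose in Rb1 KO (0.44 ± 0.06, limma adjusted p = 1.91e-05) and in DKO over Kdm5a KO (0.61 ± 0.06, limma adjusted p = 1.11e-06). Ash1l, another H3K36 enzyme, rose by less in both (0.35 and 0.25). Nsd1, an enzyme of H3K36 dimethylation, fell. It read 7699 and 7705 in WT, 8051 and 7448 in Kdm5a KO, 5662 and 5561 in Rb1 KO and 5638 and 5747 in DKO mixed cultures, and 3193 and 3302 in WT and 2005 and 1922 in DKO purified myotubes. The groups without Rb1 lay below those with it in both kinds of library. The fall was -0.46 ± 0.05, limma adjusted p = 3.52e-06 in Rb1 KO and -0.44 ± 0.05, limma adjusted p = 5.48e-06 in DKO against Kdm5a KO.

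Both LSD demethylases, which remove mono- and dimethylation of H3K4, fell with loss of Rb1 in mixed cultures. Over all genes tested, 34.3% fell in Rb1 KO against WT. Kdm1a (LSD1, ENSMUSG00000036940) read 2234 and 2186 in WT, 2206 and 2064 in Kdm5a KO, 1811 and 1723 in Rb1 KO and 1309 and 1306 in DKO mixed cultures, and 2097 and 1995 in WT and 1189 and 1083 in DKO purified myotubes. WT and Kdm5a KO overlapped, Rb1 KO lay below them and DKO was lowest. It fell in Rb1 KO (-0.32 ± 0.06, limma adjusted p = 0.00056), further in DKO than in Rb1 KO (-0.43 ± 0.06, limma adjusted p = 0.000118), and in DKO against Kdm5a KO (-0.71 ± 0.06, limma adjusted p = 6.36e-07). Kdm1b (LSD2) read 1279 and 1182 in WT, 1085 and 1028 in Kdm5a KO, 631 and 581 in Rb1 KO and 592 and 599 in DKO mixed cultures. Rb1 KO and DKO overlapped and lay below the other groups. It fell in Rb1 KO (-1.02 ± 0.08, limma adjusted p = 2.1e-07) and in DKO against WT (-1.05 ± 0.08, limma adjusted p = 2.08e-07), but in purified myotubes the count was 456 and 463 in WT and 403 and 469 in DKO, with overlap (-0.08 ± 0.21, limma adjusted p = 0.779). The DKO effect differed between the kinds of library by 0.97 ± 0.17 (limma adjusted p = 0.00321).

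All 4 KDM2 and PHF enzymes rose in Rb1 KO against WT, where 36.8% of all genes tested rose. Of the 4, 50% passed in DKO against WT, in DKO against Kdm5a KO and in purified DKO. Over all genes tested, 67.9%, 67.2% and 39.6% passed in these comparisons. Phf2, a demethylase of H3K9, read 231 and 264 in WT, 244 and 199.5 in Kdm5a KO, 917 and 1051 in Rb1 KO and 1036 and 987 in DKO mixed cultures, and 411 and 485 in WT and 2781 and 4012 in DKO purified myotubes. Every library without Rb1 stood above every library with it, within each kind of library, and the Rb1 KO and DKO mixed libraries overlapped each other. It rose 3.96-fold in Rb1 KO (1.99 ± 0.13, limma adjusted p = 1.57e-08), 4.57-fold in DKO over Kdm5a KO (2.19 ± 0.13, limma adjusted p = 8.85e-09) and 7.47-fold in purified DKO (2.90 ± 0.26, limma adjusted p = 0.00202). So a demethylase and several methyltransferases of H3K9 rose in the same libraries. Kdm2b, an H3K36 demethylase that binds unmethylated CpG and brings a Polycomb complex to it, read 261 and 229 in WT, 288 and 216 in Kdm5a KO, 639 and 582 in Rb1 KO and 806 and 790.1 in DKO. The gene rose in Rb1 KO (1.31 ± 0.14, limma adjusted p = 2.3e-06) and in DKO over Kdm5a KO (1.68 ± 0.14, limma adjusted p = 2.86e-07). Its relative Kdm2a moved by 0.22 in Rb1 KO, and in DKO it did not pass against WT (-0.04 ± 0.05, limma adjusted p = 0.492).

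Phf8, an X-linked demethylase of H3K9 and H4K20, read 274 and 327 in WT, 281 and 320.0 in Kdm5a KO, 514 and 590.1 in Rb1 KO and 242 and 290.4 in DKO. Only the Rb1 KO libraries stood apart, above all the others. It rose in Rb1 KO (0.88 ± 0.14, limma adjusted p = 0.000125) and its value in DKO against Kdm5a KO (-0.18 ± 0.14, limma adjusted p = 0.293) did not pass. The difference between these effects of Rb1 loss, -1.06 ± 0.20, passed (limma adjusted p = 0.00139), and DKO stood below Rb1 KO (-1.05 ± 0.14, limma adjusted p = 6.52e-05). In both of these, Kdm5a genotype and sex cannot be told apart. In Phf8, as in Kmt2e and Smyd3, the Rb1 KO libraries were the highest of the mixed cultures.

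Of the KDM3 enzymes, Kdm3a, which removes mono- and dimethylation of H3K9, read 1989.7 and 2249 in WT, 3043 and 3102 in Kdm5a KO, 1608 and 1592 in Rb1 KO and 1788 and 1738 in DKO. The order was that of Setd7, with Kdm5a KO highest and Rb1 KO lowest. It rose in Kdm5a KO (0.54 ± 0.07, limma adjusted p = 0.000111) and fell in Rb1 KO (-0.40 ± 0.07, limma adjusted p = 0.000154). Jmjd1c, its relative, rose in Rb1 KO (0.37 ± 0.06, limma adjusted p = 0.000103) and more in mixed DKO (0.70 ± 0.06, limma adjusted p = 3.31e-07), but not in purified DKO (0.09 ± 0.22, limma adjusted p = 0.762). Kdm3b was higher in Rb1 KO (0.30 ± 0.08, limma adjusted p = 0.00365), with up to 24.6% of its exon bases shared with Gm26538, so that its level is uncertain.

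The KDM4 enzymes, which remove trimethylation of H3K9, split. Kdm4a (ENSMUSG00000033326) read 1409 and 1413 in WT, 1052 and 1151 in Kdm5a KO, 902 and 1058 in Rb1 KO and 539.7 and 604 in DKO mixed cultures, and 2962 and 2814 in WT and 1064 and 1244 in DKO purified myotubes. DKO was lowest in both kinds of library, and only Kdm5a KO and Rb1 KO overlapped. Kdm4a fell in Rb1 KO (-0.53 ± 0.10, limma adjusted p = 0.000264), 2.47-fold in mixed DKO (-1.30 ± 0.10, limma adjusted p = 8.24e-08) and 2.51-fold in purified DKO (-1.33 ± 0.19, limma adjusted p = 0.00667). Its fall in Kdm5a KO (-0.36 ± 0.10, limma adjusted p = 0.0149) was lost without Kdm5a KO replicate 1 (adjusted p = 0.116).

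Kdm4b read 788 and 817 in WT, 811 and 893 in Kdm5a KO, 335 and 387 in Rb1 KO and 409 and 361 in DKO. It fell upon Rb1 loss with Kdm5a intact (-1.15 ± 0.11, limma adjusted p = 7.74e-07) and with Kdm5a lost (-1.15 ± 0.11, limma adjusted p = 1.03e-06), and the difference of 0.01 ± 0.15 did not pass (adjusted p = 0.973). Kdm4c moved the other way and rose in Rb1 KO (0.38 ± 0.07, limma adjusted p = 0.000483) and in DKO over Kdm5a KO (0.71 ± 0.07, limma adjusted p = 2.18e-06). Kdm4d had few reads. It stood at 17.9 and 27.7 in WT, 11.8 and 18.2 in Kdm5a KO, 72.9 and 24.4 in Rb1 KO and 58.4 and 56.1 in DKO mixed cultures and at 0 and 1.24 in WT and 6.5 and 25.1 in DKO purified myotubes, where it was under the minimum mean of 10. Its rise in mixed DKO (1.32 ± 0.48, limma adjusted p = 0.0285) was lost without WT replicate 1 (adjusted p = 0.133) or either DKO library (adjusted p = 0.112 and 0.0974).

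Kdm6a (UTX, ENSMUSG00000037369), an X-linked demethylase of H3K27 known to escape X inactivation, read 1584 and 1675 in WT, 2490.4 and 2435 in Kdm5a KO, 1942 and 2148 in Rb1 KO and 3283 and 3368 in DKO mixed cultures. No groups overlapped. It rose in Kdm5a KO (0.60 ± 0.07, limma adjusted p = 3.75e-05) and in DKO over Rb1 KO (0.70 ± 0.07, limma adjusted p = 2.3e-06), the comparisons in which Xist differs too, and also in the comparisons within 1 sex, Rb1 KO against WT (0.33 ± 0.07, limma adjusted p = 0.000627) and DKO against Kdm5a KO (0.43 ± 0.07, limma adjusted p = 6.92e-05). In purified myotubes the count was 800.0 and 917 in WT and 951 and 654 in DKO, with overlap (-0.12 ± 0.26, limma adjusted p = 0.733). Xist stood there at 1.86 and 2.48 in WT and 9881 and 9261 in DKO. The part of sex in the Kdm6a values was not tested and cannot be told apart from that of Kdm5a genotype. The DKO effect differed between the kinds of library by -1.15 ± 0.23 (limma adjusted p = 0.0054). Uty, the copy of Kdm6a on the Y chromosome, named here after its values were seen, read 3041 and 3057 in WT and 2255 and 2406 in Rb1 KO, and had 0 and 1 reads in Kdm5a KO and none in DKO. Kdm6b (JMJD3), the other H3K27 demethylase, passed in no comparison and read 163 and 114 in WT and 113 and 176 in Rb1 KO.

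The effect of Rb1 loss could be set side by side with Kdm5a intact and with Kdm5a lost, in contrasts that share no library among the 8 of the mixed cultures. These contrasts also differ in the sex of the cells, which cannot be told apart from Kdm5a genotype in any difference between them. Of the 40 genes, 20 rose in both and 8 fell in both, 34 had the same sign, and Pearson's r across the genes was 0.83 (n = 40 genes measured in libraries of 1 kind that were normalised together). Of all 17199 genes tested, 25.8% rose in both, 24.4% fell in both and 78.5% had the same sign, with r of 0.76. The test of the difference passed for 13 of the 40, 6 with a higher and 7 with a lower value when Kdm5a was lost (18.8% and 19.5% of all genes tested, together 38.3%), a share near that of all genes. Among those that passed, Smyd1 (1.79), Dpy30 (0.70), Smyd5 (0.64) and Dot1l (0.52) had the largest positive differences, that of Smyd5 lost without Kdm5a KO replicate 1, Rb1 KO replicate 1 or DKO replicate 1 (adjusted p 0.0531, 0.0537 and 0.0705). Phf8 (-1.06), Smyd3 (-0.92), Kmt2e (-0.67) and Setdb1 (-0.50) had the largest negative ones. For Suv39h1 the difference did not pass (-0.04 ± 0.11, limma adjusted p = 0.779), nor for Suv39h2 (-0.05 ± 0.19, adjusted p = 0.859), Setdb2 (-0.03 ± 0.20, adjusted p = 0.928) or Phf2 (0.20 ± 0.18, adjusted p = 0.395).

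**Figure D3:**
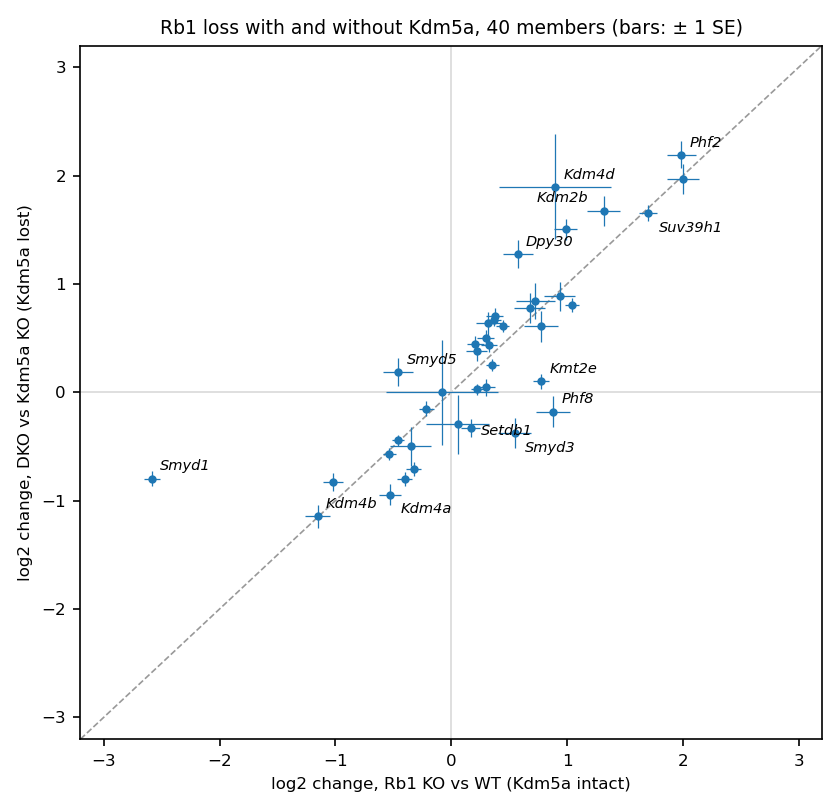
Log2 change upon loss of Rb1 for the 40 genes with Kdm5a intact (horizontal axis, Rb1 KO against WT) and with Kdm5a lost (vertical axis, DKO against Kdm5a KO), with bars of ± 1 SE and a dashed line of equal change. Most points lie near the line, and Smyd1 lies far above it, at -2.58 and -0.80.

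In purified myotubes fewer genes passed, and those that did moved as in the mixed cultures. Of the 39 genes tested in both, 9 rose in both and 4 fell in both, while 12 that rose and 4 that fell in mixed DKO did not pass in purified DKO. None passed in purified myotubes alone. The sign was the same for 32 of 39, with Pearson's r of 0.84 across the genes. Of all 15917 genes tested in both, 17.3% rose in both, 13.9% fell in both and 76.0% had the same sign, with r of 0.77. The test of the difference itself passed for 7 of the 40, 5 with a higher value in purified myotubes and 2 with a lower one (11.6% and 13.2% of all genes tested, together 24.8%). The higher ones were Suv39h1 (1.64), Dpy30 (1.02), Kdm1b (0.97), Setdb1 (0.88) and Phf2 (0.87), and the lower ones were Kdm6a (-1.15) and Jmjd1c (-0.61). Those of Dpy30, Phf2 and Jmjd1c were lost when single libraries were left out (adjusted p 0.0513 to 0.0575, 0.0573 to 0.13 and 0.0648 to 0.115). How many differences passed depended on the library left out. The median difference of the 40 was 0.15 without DKO purified replicate 1 and -0.14 without DKO purified replicate 2. Over all genes tested it was -0.07 and -0.03. With any other single library left out, the median of the 40 lay between -0.08 and -0.01, and that of all genes between -0.06 and -0.05. The mixed and purified libraries differ in RNA selection, read length, PCR and the separation of the cells, which cannot be told apart.

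**Figure D4:**
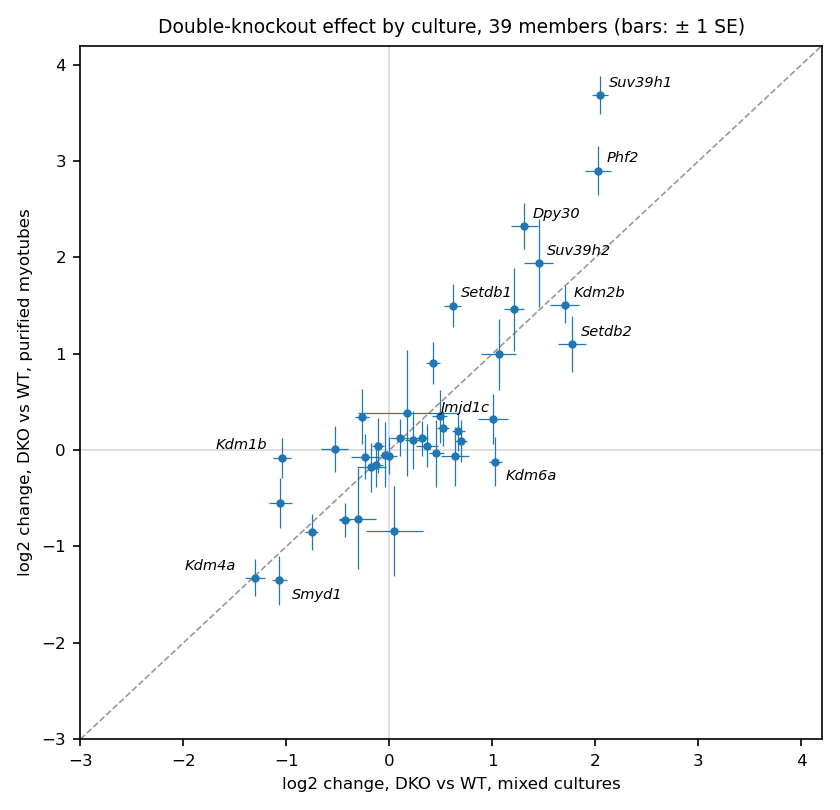
Log2 change in DKO against WT for the 39 genes tested in both kinds of library, in mixed cultures (horizontal axis) and in purified myotubes (vertical axis), with bars of ± 1 SE and a dashed line of equal change. Suv39h1 lies above the line, at 2.05 and 3.69, and Kdm6a below it, at 1.03 and -0.12.

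The purified calls rest on 4 libraries. Only Suv39h1, Phf2 and Dpy30 kept their rise without either WT library. The other 10 calls, of Kdm1a, Kdm2b, Kdm4a, Setdb1, Setdb2, Ehmt2, Suv39h2, Nsd1, Dot1l and Smyd1, were lost without WT replicate 1 and without WT replicate 2 (adjusted p 0.0599 to 0.37), with their direction kept. The median change of the 39 genes was 0.26 without DKO replicate 1 and 0.07 without DKO replicate 2. Over all genes tested it was -0.04 and -0.07. Of the genes that had not passed, 6 then passed in opposite directions according to which DKO library was left out. Without replicate 1 and without replicate 2, the change was 0.34 and -0.47 for Kmt2a, 0.49 and -0.28 for Kmt2e, 0.41 and -0.32 for Setd7, 1.38 and -0.61 for Setd1b, 0.41 and -0.51 for Kdm2a, and -0.51 and 0.44 for Kdm4c.

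The purified DKO replicates differed from each other along the GC content of the transcript. Across the 40 genes, the log2 ratio of replicate 2 to replicate 1 had Pearson's r of 0.60 with the GC percentage of the longest coding transcript, against -0.09 for the WT purified replicates. Setd1b, at 59.0% GC, read 192 and 763 in these replicates, Kmt2d 1465 and 4339.7 and Kdm6b 772 and 2012, all higher in replicate 2, while Kdm4c, at 43.7%, read 1434 and 741. The ratio of WT purified to WT mixed libraries had r of 0.73 with GC. It was 16.1 for Kdm6b, 12.8 for Setd1b, 12.2 for Kmt2d, 9.32 for Setd1a and 6.22 for Dot1l, against 0.268 for Suv39h2. Levels of these genes are therefore not compared between mixed and purified cultures here, and the part of GC in the purified comparison was not tested. These genes share libraries and base composition, and the values are a description.

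**Figure D5:**
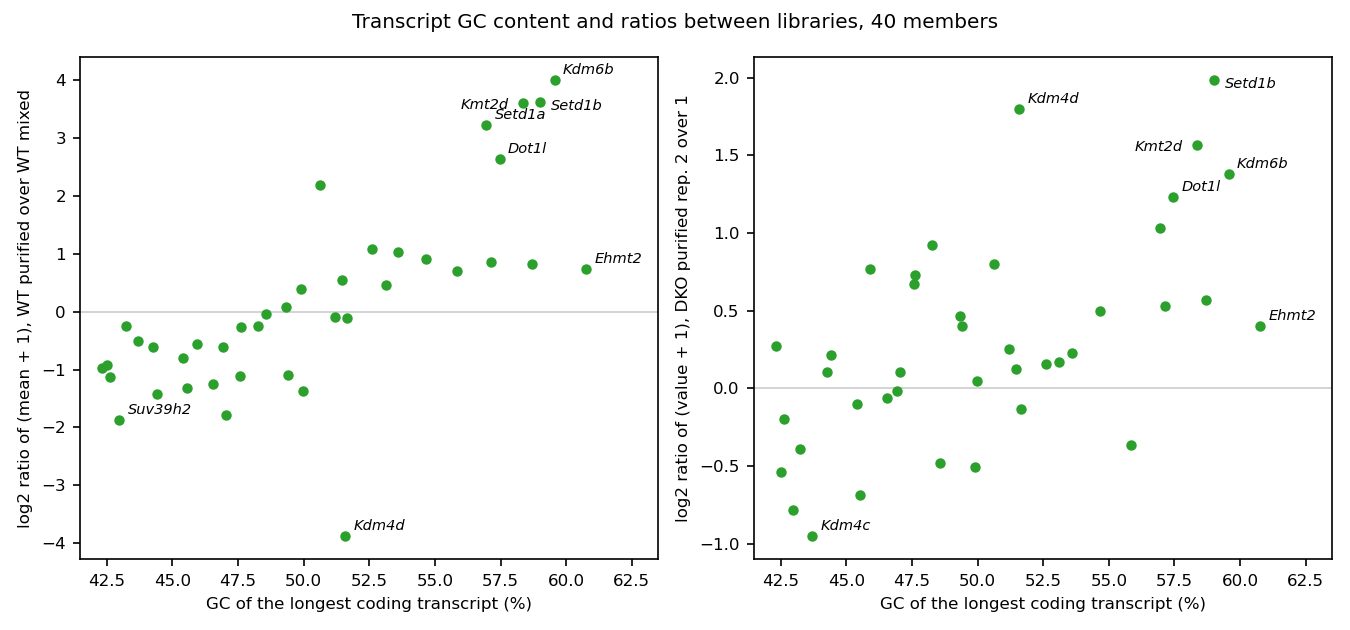
GC percentage of the longest coding transcript (horizontal axes) and, for the 40 genes as points, the log2 ratio of WT purified over WT mixed means + 1 (left) and of DKO purified replicate 2 over replicate 1 values + 1 (right). Points rise to the right in both panels, with Kdm6b, Kmt2d, Setd1b and Setd1a highest on the left.

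Related genes passed at about the rate of all genes in Rb1 KO against WT, but not in every comparison. Of those tested, 77.0% passed in DKO against WT, 78.4% in DKO against Kdm5a KO, 36.5% in Kdm5a KO and 47.9% in purified DKO. Over all genes these shares were 67.9%, 67.2%, 27.2% and 39.6%. In DKO against Rb1 KO 45.9% passed, against 47.3%, and in the test of purified against mixed 17.6%, against 24.8%. These differences in share were not tested. In 6 related lists, 74 of 75 genes were tested in mixed cultures, and 32 rose, 22 fell and 20 did not pass in Rb1 KO against WT (36.8% and 34.3% of all genes tested), so that 73.0% passed, against 71.1% of all genes. Named from each list are the 3 with the smallest p in that comparison. Among 14 readers of heterochromatin and partners of the H3K9 enzymes, 8 rose and 5 fell. Uhrf1, which reads H3K9 methylation during replication, rose from 20.3 and 4.26 in WT to 569.8 and 551 in Rb1 KO (5.73 ± 0.50, limma adjusted p = 3.76e-07). Trim28, the corepressor that recruits Setdb1, rose (limma adjusted p = 7.38e-09), as did Cdyl by 1.56 ± 0.08.

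Among 21 other lysine methyltransferases, 10 rose and 4 fell. Nsd2, a relative of Nsd1, rose by 1.95 ± 0.06 where Nsd1 fell, Setd5 by 1.13 ± 0.07 and Nsd3 by 0.92 ± 0.07. Among 11 other Jumonji proteins, 2 rose and 6 fell, with Hif1an, an asparagine hydroxylase that acts on hypoxia-inducible factor, at -2.77 ± 0.07, Kdm7a, a relative of Phf8, at -1.22 ± 0.10 and Jmjd8 at -0.97 ± 0.08. Among 12 partners of the H3K4 complexes, 6 rose and 3 fell, with Paxip1 of the Kmt2c and Kmt2d complexes at 1.96 ± 0.11, Psip1 at 1.34 ± 0.06 and Ogt at -1.52 ± 0.05. Among 12 partners of LSD1 that were tested, 6 rose and 2 fell, with Zfp217 at 1.38 ± 0.10, Rcor3, a CoREST protein, at 1.17 ± 0.10 and Zmym2 at -1.28 ± 0.07. Of the 4 KDM5 genes, Kdm5b fell by 0.84 and Kdm5c by 0.66 on the log2 scale, while Kdm5a itself did not pass (0.18 ± 0.08, limma adjusted p = 0.068).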

How the data were processed

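RNA was sequenced in 12 libraries of 6 groups, n = 2 each. The authors deposited a signal per gene and library, which is the read number over the library's size factor, from alignment with TopHat 1.2.0 to mm9 and normalisation with DESeq, per the submitters' processing notes. The read counter and the annotation are not given in the sources used here. Every value came out as a whole number of reads within 0.01 (100% in each library), and the recovered reads gave depths and alternative tests. Every column had a sample.

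Tests covered genes whose mean was 10 or more, made with limma 3.58.1 in R 4.3.3 (intensity trend, two-sided, Benjamini-Hochberg adjustment over all genes tested, threshold 0.05) on log2(value + 1). One fit held the 8 mixed libraries (17199 genes) and another the 4 purified (16670 genes), and the difference between them used all 12 (17273 genes). The main limma fit and the fits with edgeR and DESeq2 were tested on simulated counts, for Rb1 KO against WT and purified DKO against WT only. The other settings and comparisons were not simulated. The simulation gave every gene and library the same spread beyond counting noise, so it does not cover the wider spread of the purified DKO replicates. Alternatives were a pseudocount of 10, no filter, TMM scaling, a replicate block, only the groups compared, members on X left out, each library left out, and counts tested as recovered reads with edgeR 4.0.16 (12152 genes called in Rb1 KO against WT) and DESeq2 1.42.0 (11623), against 12237 for limma.

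Symbols and exons came from GENCODE M21 (GRCm38), which matched 30983 of 36229 identifiers (85.5%), and reads of genes with no symbol made up 2.83% of a library or less. Promoter windows are from RefSeq (GRCm38.p6), while the reads were aligned to mm9. Of the 40 genes, 16 share exon bases with another gene and are uncertain to that extent: Suv39h1, Smyd2, Setd1a and Kdm3b as given above, and Kdm1b, Kdm2b, Phf2, Kdm6b, Kmt2a, Kmt2c, Kmt2e, Setd7, Setdb1, Ehmt1, Suv39h2 and Ash1l over at most 9.98% of their exon bases. Levels are given in every library for the 5 largest rises and falls, among genes that passed without overlap and with a group mean of at least 100, in Rb1 KO against WT, DKO against Rb1 KO and purified DKO against WT, for 2 each way in the other comparisons, and for genes on X or with low values; some others were added for their role. The members and lists were chosen with earlier results of these data known.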

Additional observations from a re-analysis of the deposited data

Results flagged for a closer look

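The effect of Rb1 loss differed, by the limma test of the difference itself, between cells that had lost Kdm5a and cells that kept it for 13 of the 40 genes. The same test passed for 38.3% of all genes tested. The cells that had lost Kdm5a also differed in sex from those that kept it, so Kdm5a genotype and sex cannot be told apart in this difference. Values are the log2 effect with Kdm5a lost minus that with Kdm5a intact, ± standard error. It was higher with Kdm5a lost for Smyd1 (1.79 ± 0.10), Dpy30 (0.70 ± 0.19), Smyd5 (0.64 ± 0.18), Dot1l (0.52 ± 0.14), Kdm4c (0.33 ± 0.10) and Jmjd1c (0.30 ± 0.08). It was lower for Phf8 (-1.06 ± 0.20), Smyd3 (-0.92 ± 0.20), Kmt2e (-0.67 ± 0.10), Setdb1 (-0.50 ± 0.12), Kdm4a (-0.41 ± 0.13), Kdm3a (-0.40 ± 0.10) and Kdm1a (-0.38 ± 0.09). The calls of Jmjd1c, Kdm4a, Kdm4c and Smyd5 were lost when single libraries were left out, at adjusted p 0.0518 and 0.0592 for Jmjd1c (without Kdm5a KO replicate 1 or DKO replicate 1), 0.0516 to 0.129 for Kdm4a (WT 1, Kdm5a KO 2, Rb1 KO 2 or DKO 1), 0.0663 to 0.109 for Kdm4c (WT 1, Kdm5a KO 2, Rb1 KO 2 or DKO 2) and 0.0531 to 0.0705 for Smyd5 (Kdm5a KO 1, Rb1 KO 1 or DKO 1).

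The effect of losing both genes differed between purified myotubes and mixed cultures for 7 of the 40. The test of this difference passed for 24.8% of all genes tested. Values are the log2 effect in purified minus that in mixed libraries. It was higher in purified myotubes for Suv39h1 (1.64 ± 0.15), Dpy30 (1.02 ± 0.25), Kdm1b (0.97 ± 0.17), Setdb1 (0.88 ± 0.20) and Phf2 (0.87 ± 0.27), and lower for Kdm6a (-1.15 ± 0.23) and Jmjd1c (-0.61 ± 0.18). The calls of Dpy30, Phf2 and Jmjd1c were lost when single libraries were left out. RNA selection, read length, PCR and the separation of the cells differ between the kinds of library and cannot be told apart.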

How the results depend on the processing

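No change of the 40 genes that passed turned its direction under any alternative, but 6 genes that had not passed in purified DKO (Kmt2a, Kmt2e, Setd7, Setd1b, Kdm2a and Kdm4c) passed in opposite directions without the one and without the other DKO library. With only the compared groups in the fit, 3 members fell in Kdm5a KO against WT in place of 6, and with the members on X left out 1 was lower in the purified than in the mixed DKO effect in place of 2. With 1 library left out, the members that fell in Kdm5a KO numbered 2 to 4 and all genes called 3057 to 4251. In purified DKO the members that rose numbered 3 to 18, those that fell 0 to 12 and all genes called 1983 to 11574, and for the difference between purified and mixed they numbered 3 to 12, 1 to 11 and 2471 to 8989. Same-numbered libraries did not deviate together (correlations -0.05 to 0.05), so the replicate numbers are taken as labels only. With a replicate block, 24 members rose and 10 fell in Rb1 KO, 6 and 6 in Kdm5a KO, 22 and 8 in mixed DKO and 10 and 4 in purified DKO, where 7629 genes were called. The block ended the calls of Wdr5 in Rb1 KO and of Nsd1 in purified DKO, ended no other call of the members, and added Setd1a and Kdm6b as passing in purified DKO. edgeR and DESeq2 ended at most 3 calls in a comparison. Kdm4d and Setd1b had too few reads in mixed cultures for small changes to be detectable at this depth. With n = 2, the lone library left when its replicate is dropped is assumed to vary like the other groups.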
